A study of Arabidopsis thaliana with 9 samples.

Results

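The 4 genes described here are AT1G62500, AT5G05960 and AT5G55450 of the lipid-transfer protein family and AT2G14900, a gibberellin-regulated gene of the GASA family. They were taken by locus from the platform's probe-to-gene table, where each is represented by 1 probe set, and they are 4 of 13356 genes that the table pairs with a probe set of 1 gene. AT1G62500, AT5G05960 and AT2G14900 were chosen by their differences between stunted and wild-type plants, among the largest decreases of named genes, and AT5G55450 was chosen with the results of the stunted plants known. Their levels in stunted plants are therefore a description and were given no test.

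Transcripts of Arabidopsis thaliana, background Col-0, were measured on Affymetrix arrays with RNA from the above-ground parts of 8-week-old greenhouse plants. The 9 arrays form 3 groups of 3 biological replicates. The groups are stunted plants of an msh1 RNAi transgenic line, variegated plants of an msh1 RNAi transgenic line, and wild type. MSH1 is a nuclear gene for a MutS-like protein of mitochondria and plastids that limits recombination of the organelle genomes. RNA interference lowers a transcript without removing its gene, and the construct, its promoter and the number of independent lines are not given in the sources used here. The level of MSH1 itself was not analysed here, so the labels carry no check from the targeted gene.

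Lipid-transfer family proteins are small, secreted and rich in cysteines, whose disulfide bridges hold a bundle of helices around a cavity that can bind lipids. In shoots they are known from the epidermis, the cuticle and the cell wall, and some act in defence. GASA proteins are likewise small, secreted and cysteine-rich, and several are known to respond to gibberellin, the hormone that promotes stem and leaf elongation through the degradation of DELLA repressors. AT1G62500 belongs to the family members that carry a proline-rich stretch before the cysteine-rich domain. Neither the lipids bound by these 4 proteins nor their receptors, if any, were measured.

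All values below are the deposited expression values on the log2 scale, where 1 unit is a 2-fold change, given for 1 probe set per gene. Differences carry the moderated standard error (SE) of a limma fit over all 9 arrays. Array medians lay between 3.37 and 3.43, and array pairs correlated at r = 0.985 to 0.995 within groups and 0.974 to 0.991 between groups across probe sets. Levels of different genes are not set against each other, since each probe set has its own response.

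**Figure D1:**
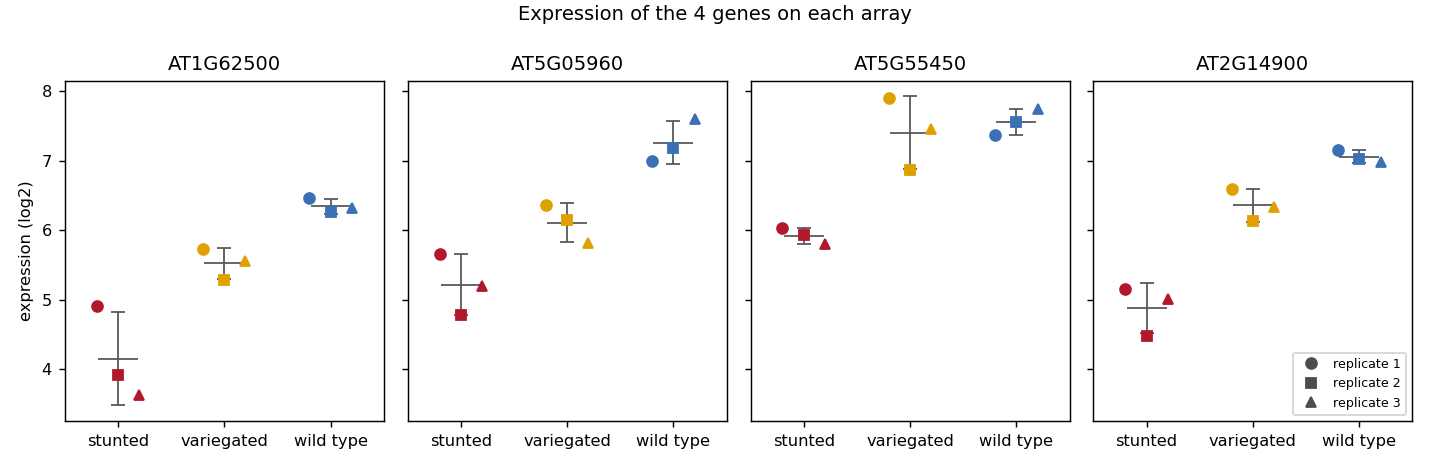
Expression (log2) of the 4 genes on each of the 9 arrays, by group, with bars at the group mean and its SD (n = 3) and a marker shape for each replicate number. In AT1G62500, AT5G05960 and AT2G14900 the groups form 3 separate steps, while in AT5G55450 the variegated and wild-type arrays overlap and the stunted arrays lie between 5.80 and 6.03.

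AT1G62500, the proline-rich member, stood at 4.91, 3.91 and 3.63 on the 3 stunted arrays, at 5.73, 5.28 and 5.56 on the variegated arrays, and at 6.47, 6.26 and 6.32 on the wild-type arrays. The 3 groups did not overlap, and the stunted group was the most spread. The group means were 4.15 ± 0.67 in stunted, 5.52 ± 0.23 in variegated and 6.35 ± 0.11 in wild-type plants (SD, n = 3 each). The stunted mean was 4.57-fold below that of wild type, a log2 difference of -2.19 (SE 0.28), and ranked 9 from the lowest among 22746 probe sets. Stunted replicate 1 accounted for much of the spread, and without it the difference was -2.57. The stunted mean was also 2.59-fold below that of variegated plants, a log2 difference of -1.37 (SE 0.28).

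AT5G05960, a lipid-transfer family gene without a symbol in the tables used, stood at 5.66, 4.78 and 5.21 on the stunted arrays. The variegated arrays gave 6.37, 6.15 and 5.81, and the wild-type arrays 6.997, 7.18 and 7.60. Again no 2 groups overlapped, and the distance between variegated and wild type was the widest of the 4 genes. The means were 5.22 ± 0.44 in stunted, 6.11 ± 0.28 in variegated and 7.26 ± 0.31 in wild-type plants (SD, n = 3 each). The stunted mean was 4.13-fold below wild type (log2 difference -2.05, SE 0.24) and 1.86-fold below variegated (log2 difference -0.89, SE 0.24), the smallest stunted minus variegated difference of the 4 genes.

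AT5G55450 is also of the lipid-transfer family, and its variegated and wild-type arrays overlapped. Whether this gene differed from the others in that respect was not tested. Its values were 6.03, 5.93 and 5.80 on the stunted arrays, 7.90, 6.86 and 7.45 on the variegated arrays and 7.38, 7.56 and 7.75 on the wild-type arrays. The variegated arrays spanned the wild-type range and beyond it on both sides, while the stunted arrays lay close together below both. The means were 5.92 ± 0.11 in stunted, 7.41 ± 0.52 in variegated and 7.56 ± 0.19 in wild-type plants (SD, n = 3 each). The stunted mean was 3.12-fold below wild type (log2 difference -1.64, SE 0.22) and 2.80-fold below variegated (log2 difference -1.49, SE 0.22).

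AT2G14900, the GASA family gene, stood at 5.15, 4.48 and 5.01 on the stunted arrays, at 6.60, 6.14 and 6.34 on the variegated arrays and at 7.16, 7.03 and 6.99 on the wild-type arrays. The groups formed 3 steps without overlap. The means were 4.88 ± 0.36 in stunted, 6.36 ± 0.23 in variegated and 7.06 ± 0.09 in wild-type plants (SD, n = 3 each). The stunted mean was 4.53-fold below wild type (log2 difference -2.18, SE 0.17) and 2.79-fold below variegated (log2 difference -1.48, SE 0.17).

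For all 4 genes the order of the group means was therefore stunted, then variegated, then wild type, from low to high. In AT5G55450 the upper neighbours in this order, variegated and wild type, did not differ beyond their spread. The arrays of stunted and wild-type plants did not overlap in 4 of 4 genes, against a background of 11.2% of probe sets that were lower without overlap, and those of stunted and variegated plants in 4 of 4, against 9.55%. The choice of the genes fixes these counts, and nothing is read from them. In whole above-ground tissue, fewer cells of a type that makes a transcript and less of it per cell cannot be told apart.

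**Figure D2:**
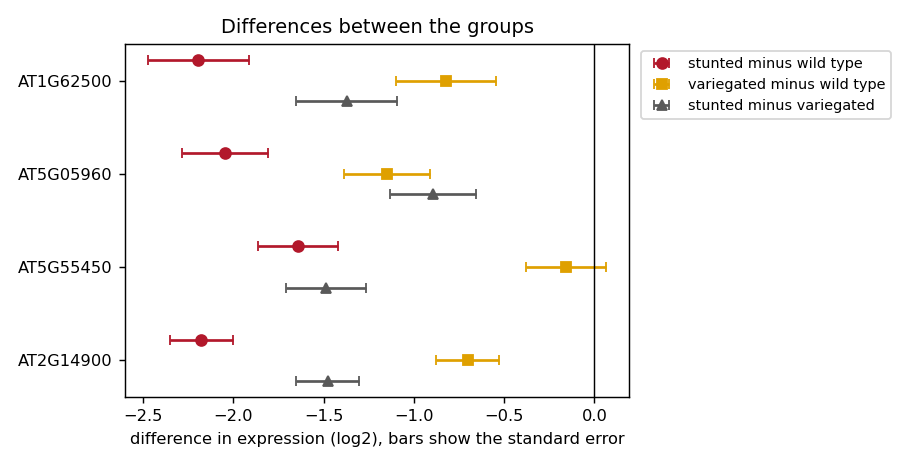
Log2 differences of the 4 genes between the groups, with bars for the standard error. In AT1G62500, AT5G05960 and AT2G14900 the variegated minus wild type difference lies between -1.15 and -0.70, and in AT5G55450 it is -0.16.

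AT1G62500, AT5G05960 and AT2G14900 were chosen by their differences between stunted and wild-type plants. Which comparison chose AT5G55450 is not stated in the sources used here, and every gene was chosen with earlier results of these data known. The comparison of variegated with wild-type plants also shares the wild-type arrays, so it is not free of the choice. It asks whether RNAi plants sampled for variegation also had lower transcript levels. AT5G05960 was 2.22-fold lower (log2 difference -1.15, SE 0.24, 95% interval -1.69 to -0.61, limma adjusted p = 0.0848), and all 3 variegated arrays lay below all 3 wild-type arrays. AT1G62500 was 1.77-fold lower (log2 difference -0.82, SE 0.28, 95% interval -1.45 to -0.19, limma adjusted p = 0.281), again with 3 of 3 arrays below. AT2G14900 was 1.63-fold lower (log2 difference -0.70, SE 0.17, 95% interval -1.10 to -0.31, limma adjusted p = 0.134), with the same separation. AT5G55450 had a log2 difference of -0.16 (SE 0.22, 95% interval -0.66 to 0.34, limma adjusted p = 0.849), and its arrays overlapped.

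None of the 4 genes passed an adjusted p of 0.05 in limma in this comparison, where 0.444% of 22746 probe sets passed. At an unadjusted p under 0.05, 3 of 4 did, beside 11.6% of all probe sets, and in 3 of 4 the variegated arrays lay wholly below wild type, beside 7.43%. These shares hold for unchosen probe sets. The genes chosen by their decrease against the same 3 wild-type arrays lean towards lower values here through those arrays, so nothing is read from the counts, and the p-values and intervals take no account of the choice. The intervals are not adjusted for the number of probe sets. Leaving out stunted replicate 1, which enters this comparison only through the shared estimate of the spread, brought the adjusted p to 0.0302 for AT1G62500 and 0.0390 for AT5G05960. Both also passed in a limma fit of the 2 groups alone (adjusted p = 0.0396 and 0.0496), and AT5G05960 with array weights (0.0349). Over all 9 single-array omissions the adjusted p ranged from 0.0302 to 0.593 for AT1G62500, from 0.0390 to 0.253 for AT5G05960, from 0.0694 to 0.398 for AT2G14900 and from 0.584 to 0.959 for AT5G55450.

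Within the groups the 4 genes leaned alike on some arrays and not on others. Stunted replicate 1 was the highest of the stunted arrays in all 4, by 0.76 above the group mean in AT1G62500, 0.44 in AT5G05960, 0.27 in AT2G14900 and 0.11 in AT5G55450. Variegated replicate 1 was the highest of its group in all 4 as well, by 0.21 to 0.49. Wild-type replicate 1 was mixed, at 0.12 from the group mean in AT1G62500, -0.26 in AT5G05960, 0.10 in AT2G14900 and -0.19 in AT5G55450. The share of all probe sets that were highest on the same arrays was not counted, so nothing is read from these counts. After subtraction of the group means, the 6 pairs of genes correlated at r = 0.37 to 0.57 over the 9 arrays, which are few. Pairs of other genes were not set beside them. Across the 9 arrays as they stand, the pairs correlated at 0.82 to 0.96, a value carried largely by the 3 group levels.

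Control signals for RNA quality varied between arrays of each group as well as between groups. The actin 3' minus 5' control signal was 1.42, 1.59 and 1.95 on the stunted arrays, 0.95, 1.05 and 1.45 on the variegated arrays and 1.11, 1.11 and 1.56 on the wild-type arrays. The 25S rRNA control was 4.50, 8.99 and 8.58 on the stunted, 4.49, 4.97 and 8.66 on the variegated and 4.25, 4.19 and 6.44 on the wild-type arrays. The groups overlapped on both controls, and replicate 3 had the highest actin signal in every group. On the actin signal, the stunted arrays overlapped the other groups through replicate 1 alone. Stunted replicate 1 was the lowest of the stunted arrays on both controls and the highest of them in the 4 genes, and the part of RNA quality in their levels was not tested beyond the covariate. With the actin signal as a covariate, the stunted minus wild type differences were -1.88 for AT1G62500, -1.97 for AT5G05960, -1.64 for AT5G55450 and -2.12 for AT2G14900. The stunted minus variegated difference of AT1G62500 was -0.97 with the covariate, beside -1.37 without. Over the 9 alternatives without an omission it was -1.02 to -0.80 for AT5G05960, -1.50 to -1.46 for AT5G55450 and -1.57 to -1.40 for AT2G14900. Between stunted and variegated plants, 79 probe sets passed in limma with the covariate, beside 396 without.

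The family around the 3 lipid-transfer genes was described with a list of 100 loci, of which 45 had a probe set, 42 of them besides the 3. Of 11 genes whose symbol or synonym in the RefSeq gene table names lipid transfer, 0 had a probe set of 1 gene. The counts below therefore cover only the measured part of the family. In stunted against wild-type plants, 5 of the 42 fell and 1 rose in limma at an adjusted p under 0.05, while 36 did not pass. That is 11.9% and 2.38% of the 42, beside 4.75% and 4.91% of all probe sets. At an unadjusted p under 0.05 in limma, 6 of the 42 were lower and 5 higher, 11 in all, beside 22.5% of all probe sets. The arrays did not overlap in 6 that were lower, beside 11.2% of all probe sets. They also did not overlap in 6 that were higher. The share of all probe sets higher without overlap was not counted, so nothing is read from that count. The median log2 difference of the 42 was 0.03, beside 0.00 for all genes tested. Of the 42, 29 lay below the median of all values, where no call was made, and the 6 calls were all among the 13 brighter ones. Of all probe sets above that median, 8.86% fell and 9.15% rose.

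**Figure D3:**
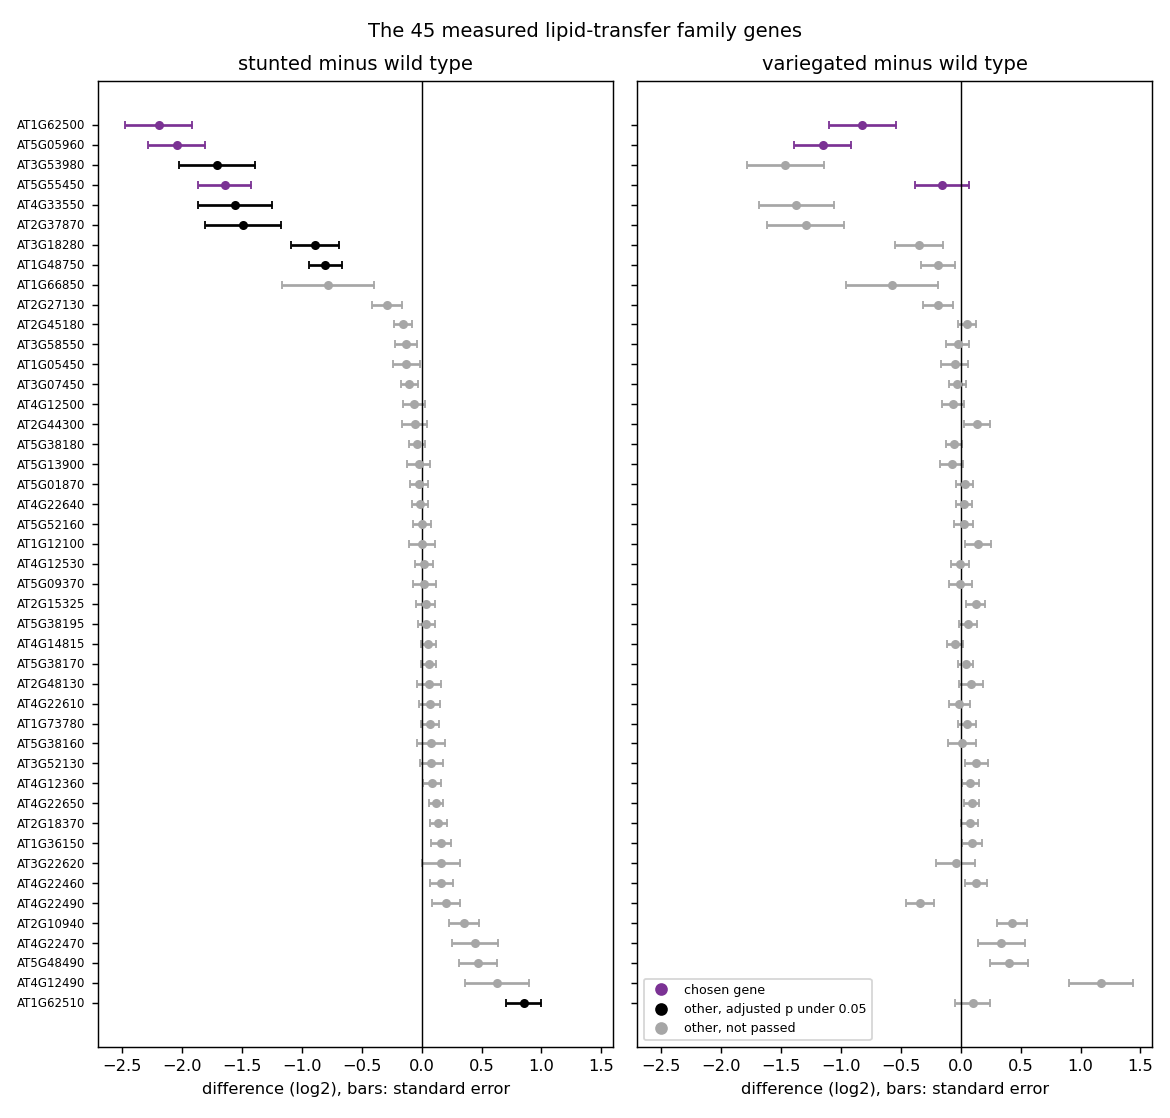
Log2 differences of the 45 measured lipid-transfer family genes, stunted minus wild type on the left and variegated minus wild type on the right, with bars for the standard error. On the left, 8 genes lie below -0.8, among them the 3 chosen genes in purple, and AT1G62510 is highest at 0.85.

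Of the 5 lipid-transfer family genes that fell in stunted plants, AT3G53980, AT4G33550 and AT2G37870 had the largest differences. AT3G53980 stood at 5.30, 4.77 and 4.83 on the stunted arrays, against 5.81, 7.08 and 7.14 on the wild-type arrays, and fell by 1.71 (SE 0.32, limma adjusted p = 0.0107). Its wild-type replicate 1 lay well below the other wild-type arrays, but still above every stunted one. AT4G33550 averaged 3.88 ± 0.25 in stunted and 5.43 ± 0.72 in wild-type plants (SD, n = 3 each) and fell by 1.56 (SE 0.31, limma adjusted p = 0.0142). AT2G37870 averaged 4.49 ± 0.45 in stunted and 5.98 ± 0.68 in wild-type plants and fell by 1.49 (SE 0.32, limma adjusted p = 0.0197). AT3G18280 fell by 0.89 (SE 0.20) and AT1G48750 by 0.80 (SE 0.14).

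These calls differed in how far they rested on single arrays. AT3G53980 and AT1G48750 kept their calls whichever of the 9 arrays was left out. AT4G33550 lost its call without stunted replicate 2 (adjusted p = 0.0527). For AT2G37870 the call ended on omission of stunted replicate 2, stunted replicate 3 or wild-type replicate 2 (adjusted p up to 0.0804). For AT3G18280 it ended on omission of these 3 arrays or of wild-type replicate 3 (adjusted p up to 0.0858). AT3G18280 and AT2G37870 also did not pass with the actin signal as a covariate (adjusted p up to 0.123 over the alternatives without an omission). The count of 5 was 3 without wild-type replicate 2, 2 without stunted replicate 2 and 3 without stunted replicate 3.

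In variegated plants AT3G53980, AT4G33550 and AT2G37870 were at 5.21 ± 0.17, 4.06 ± 0.23 and 4.69 ± 0.16 (SD, n = 3 each), close to their stunted levels. Their variegated minus wild type differences were -1.46 (SE 0.32, limma adjusted p = 0.101), -1.37 (SE 0.31, limma adjusted p = 0.109) and -1.29 (SE 0.32, limma adjusted p = 0.130), so none passed. Their stunted minus variegated differences were -0.25, -0.19 and -0.20, each smaller than its SE of 0.31 to 0.32. Beside these, the 3 chosen lipid-transfer genes had stunted minus variegated differences of -0.89 (SE 0.24) for AT5G05960, -1.37 (SE 0.28) for AT1G62500 and -1.49 (SE 0.22) for AT5G55450. These 3 genes were chosen with the stunted results known, and the choice shapes their differences. The contrast between the 2 sets of genes was not tested, and nothing is read from it. No lipid-transfer gene of the 42 passed in limma between variegated and wild-type plants, beside 0.444% of all probe sets. At an unadjusted p under 0.05, 4 of the 42 were lower and 3 higher there, 7 in all, beside 11.6% of all probe sets. AT4G12490 had the largest positive difference there, 1.17 (SE 0.27, limma adjusted p = 0.111), with arrays at 4.86, 3.80 and 4.80 in variegated and 3.50, 3.43 and 3.03 in wild-type plants.

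**Figure D4:**
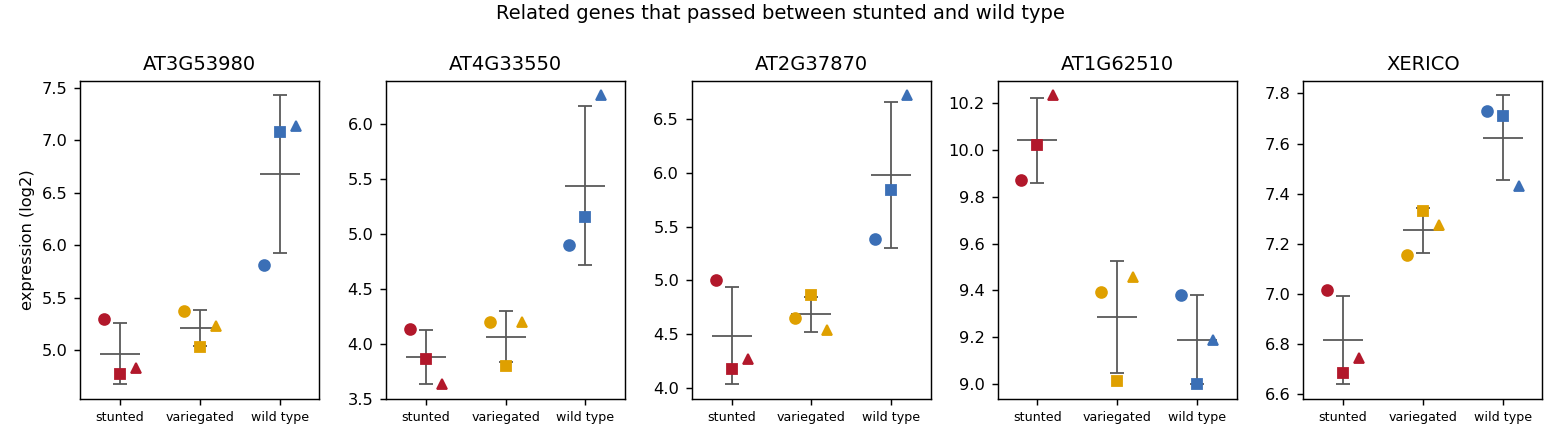
Expression (log2) of AT3G53980, AT4G33550, AT2G37870, AT1G62510 and XERICO on each array, with bars at the group mean and its SD (n = 3) and separate vertical scales. The variegated arrays of AT3G53980, AT4G33550 and AT2G37870 lie beside the stunted ones, and those of AT1G62510 beside wild type.

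AT1G62510, the next protein-coding gene after AT1G62500 on chromosome 1 and a lipid-transfer family gene itself, moved in the opposite direction. It stood at 9.87, 10.0 and 10.2 on the stunted arrays, at 9.39, 9.01 and 9.46 on the variegated arrays and at 9.38, 9.0 and 9.19 on the wild-type arrays. The stunted arrays lay above all others, and the variegated and wild-type arrays overlapped. AT1G62510 rose by 0.85 in stunted against wild-type plants (SE 0.15, 1.81-fold, limma adjusted p = 0.00755), and it passed whichever of the 9 arrays was left out. It was also the 1 gene of the 42 that passed between stunted and variegated plants, where 0.87% of probe sets rose, with a difference of 0.75 (SE 0.15, limma adjusted p = 0.0408), a call kept in 2 of 9 omissions (adjusted p up to 0.125).

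Of the 3 protein-coding genes on each side of the 4 chosen ones, 7 of 24 had a probe set of 1 gene. In stunted against wild-type plants, where 9.66% of all probe sets passed, AT1G62510 rose, and AT1G62480, on the other side of AT1G62500, fell by 1.08 (SE 0.08, limma adjusted p = 0.000177). AT1G62490, which lies between AT1G62480 and AT1G62500, had a difference of -0.01 (SE 0.06) at a mean level of 2.60, below the array medians. Beside AT2G14900, AT2G14880 had a difference of 0.46 (SE 0.15, limma adjusted p = 0.103) and AT2G14910 of 0.08 (SE 0.07). The 12 flanking genes of AT5G05960 and AT5G55450 were looked up too, and none was paired with a probe set of 1 gene in the table used, so they gave no values. AT5G55410 and AT5G55460 among them are on the lipid-transfer list.

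Around AT2G14900, 5 other GASA family genes of 15 listed were measured, and none passed in limma in any of the 3 comparisons, nor at an unadjusted p under 0.05. Of all probe sets, 9.66% passed and 22.5% had an unadjusted p under 0.05 in stunted against wild-type plants, 0.444% and 11.6% in variegated against wild-type plants, and 1.74% and 15.4% in stunted against variegated plants. AT1G22690 was the 1 of these 5 with a level above the median of all values. It stood at 7.18, 6.996 and 7.41 on the stunted, 7.66, 7.23 and 7.02 on the variegated and 7.46, 6.53 and 5.67 on the wild-type arrays, which spread over most of 2 log2 units. Its stunted minus wild type difference was 0.64 (SE 0.38, limma adjusted p = 0.376), opposite in sign to that of AT2G14900. AT2G39540, AT5G59845, AT2G18420 and AT2G30810 had mean levels of 2.45 to 2.91, and their stunted minus wild type differences were 0.17, -0.02, -0.03 and 0.01.

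Of 39 listed genes of gibberellin metabolism and signalling, 7 were measured, all of them in signalling. In stunted against wild-type plants 1 of the 7 fell and 6 did not pass, with a median difference of -0.09. Of all probe sets 4.75% fell, and of those above the median of all values, where 6 of the 7 lie, 8.86% did. XERICO, a RING-type ubiquitin ligase gene known to be raised by DELLA proteins and to promote abscisic acid accumulation, stood at 7.01, 6.69 and 6.75 on the stunted, 7.16, 7.33 and 7.28 on the variegated and 7.73, 7.71 and 7.43 on the wild-type arrays. Its 3 groups did not overlap, as was also so for AT1G62500, AT5G05960 and AT2G14900, and for AT3G18280 of the lipid-transfer list. In AT3G18280 the highest stunted array was at 7.65 and the lowest variegated array at 7.66. Of all probe sets, 11.2% were lower without overlap in stunted against wild type, 7.43% in variegated against wild type and 9.55% in stunted against variegated. The share with all 3 at once was not counted. XERICO fell by 0.81 in stunted against wild-type plants (SE 0.11, limma adjusted p = 0.00305) and passed in each of the 9 omissions. Its variegated minus wild type difference was -0.37 (SE 0.11, limma adjusted p = 0.221).

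The gibberellin receptor genes GID1A, GID1B and GID1C had stunted minus wild type differences of -0.25 (SE 0.17), 0.14 (SE 0.11) and -0.09 (SE 0.12). SLY1, the F-box gene whose product marks DELLA proteins for degradation, had -0.01 (SE 0.09), and its relative SLY2 had -0.09 (SE 0.08). SPY, a repressor of gibberellin responses, had 0.08 (SE 0.12). For these 6 genes limma gave adjusted p-values of 0.449 to 0.955. None of the 7 passed in limma between variegated and wild-type plants, and 2 had an unadjusted p under 0.05, beside 0.444% and 11.6% of all probe sets.

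Of 42 listed cuticle and wax genes, WSD1, SHN3 and FATB were measured, and none of them passed in limma in any comparison. Of all probe sets, 9.66% passed in stunted against wild type, 0.444% in variegated against wild type and 1.74% in stunted against variegated. With 3 genes, nothing is read from this count. FATB, a plastid thioesterase that releases the fatty acids used for wax, had a stunted minus wild type difference of -0.29 (SE 0.11, limma adjusted p = 0.140), the 1 of the 3 with an unadjusted p under 0.05, beside 22.5% of all probe sets. WSD1, a wax ester synthase, had -0.18 (SE 0.11), and SHN3, a transcription factor of cuticle formation, had -0.03 (SE 0.11). None of the 8 listed proline-rich wall protein genes had a probe set of 1 gene.

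Markers of cell types were sparsely covered. The 1 measured epidermis marker of 7, CR4, was at 2.90 to 3.12 on all 9 arrays, below the array medians. The 1 measured shoot meristem marker of 4, CLV3, was at 2.69 to 3.03, and no mesophyll or flower marker on the list was measured. The 1 measured root marker of 5, PYK10, a beta-glucosidase, stood at 5.51, 5.55 and 5.98 on the stunted, 3.78, 3.95 and 4.09 on the variegated and 4.45, 4.09 and 4.01 on the wild-type arrays, and rose by 1.495 in stunted against wild-type plants (SE 0.15, limma adjusted p = 0.000875). PYK10 was thus higher on the arrays where the 4 genes were lowest, and its part in their levels was not tested.

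For each of the 4 genes, the 5 genes with the highest Pearson r over the 9 arrays were looked up among 13356 genes. The 9 points share their RNA, arrays and 3 group levels, so r is given as a description. Genes picked in this way repeat the group levels of the gene they were matched to, so nothing is read from those levels. Most like AT1G62500 were PMM, TUB9, AT1G72230, ATLP-1 and XTH32, at r = 0.977 to 0.979. TUB9 encodes a beta-tubulin, and XTH32 a xyloglucan endotransglucosylase of the cell wall. XTH32 averaged 6.90 in stunted, 7.77 in variegated and 8.08 in wild-type plants, and TUB9 averaged 5.88, 6.35 and 6.64 in the same groups.

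Most like AT5G05960 were LCR68, AT5G44400, AT5G66420, AT1G27030 and AT5G49555, at r = 0.974 to 0.993. LCR68, a defensin-like gene for another small secreted cysteine-rich protein, averaged 7.53 in stunted, 7.90 in variegated and 8.32 in wild-type plants. Most like AT2G14900 were UBC22, WLIM1, AT5G22580, AT4G32460 and AT1G09920, at r = 0.982 to 0.995. UBC22 is a ubiquitin-conjugating enzyme gene and WLIM1 an actin-bundling protein gene, and UBC22 followed AT2G14900 on a smaller scale, with means of 6.23 in stunted, 6.62 in variegated and 6.84 in wild-type plants.

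Most like AT5G55450 were AT3G53990, AT2G31490, AT3G12290, AT5G61660 and AT4G27270, at r = 0.961 to 0.976. AT3G53990, a universal stress protein family gene, averaged 8.44 in stunted, 9.01 in variegated and 9.05 in wild-type plants. Each of these 5 genes had a variegated minus wild type difference between -0.10 and 0.00 and a stunted minus wild type difference between -0.68 and -0.25, smaller in size than that of AT5G55450. No gene appeared in the 5 of more than 1 of the 4.

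**Figure D5:**
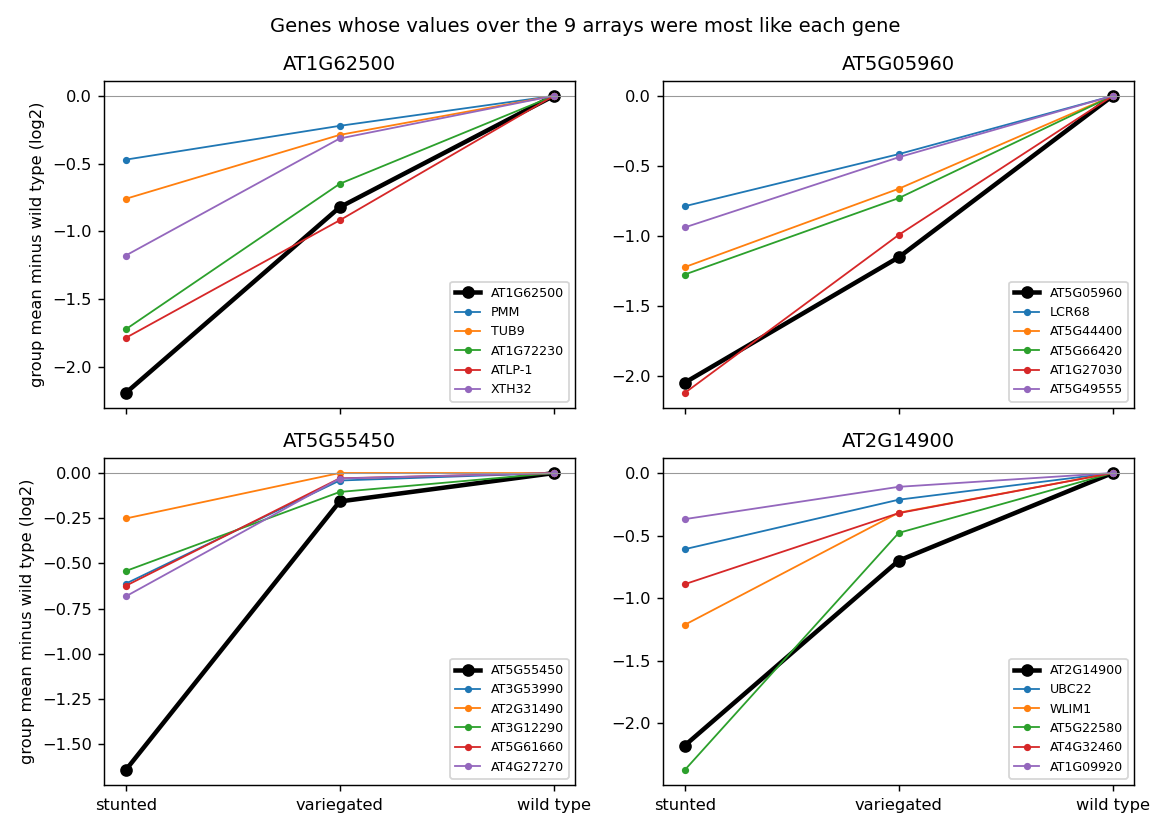
Group means minus the wild-type mean (log2) for each of the 4 genes in black and for the 5 genes most like it over the 9 arrays. The genes most like AT5G55450 lie between -0.10 and 0.00 in variegated plants, and those most like AT1G62500, AT5G05960 and AT2G14900 between -0.99 and -0.11. The genes were picked for likeness over the same arrays, so this contrast follows from the choice.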

How the data were processed

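The deposited table holds log2 expression values for 22810 probe sets on 9 arrays. Per the submitters' processing notes the authors used affy and RMA, which corrects, normalizes and summarises probes into log2 values. The versions and background step are not given in the sources used here. Values near the floor of 1.98 may be compressed. RMA-type processing equalises the arrays, so a shift of most transcripts would not be seen. After removal of 64 control probe sets, the other 22746 were fitted with limma 3.58.1 in R 4.3.3, with 1 mean per group over all arrays and Benjamini-Hochberg adjustment over all probe sets. Tests are two-sided, and the procedure was tested on simulated data. Arrays have no read depth, and their number limits the precision.

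The platform's table pairs 13513 probe sets (59.4%) with 1 gene and 503 with several, and 8730 are unnamed here. The brightest probe set represented a gene. The platform's names are old, and 13286 of 13356 genes were found by gene number in a RefSeq gene table of assembly TAIR10.1, used for names and gene order. Files name no build, so no positions are given.

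The 4 genes and all gene lists were chosen with earlier results of these data known. Lists were written from locus codes. Named besides the 4 were, per list and comparison, up to 4 genes with the smallest adjusted p among those that passed, otherwise the 2 with the smallest p, every measured GASA and GID1 gene, and the 5 genes most like each of the 4. AT3G18280, AT2G37870, SHN3, AT4G12490, AT1G62480, AT1G62490, AT2G14880, AT2G14910, PYK10, CR4 and CLV3 were named besides, as were SLY1, SLY2 and SPY, after their values were seen. Alternatives covered the replicate block, the 2 groups alone, variance moderation, array weights, normalization, a filter on dim probe sets, the actin covariate and omission of each array.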

Additional observations from a re-analysis of the deposited data

How the results depend on the processing

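The stunted minus wild type and stunted minus variegated differences of the 4 genes stayed negative in all 9 single-array omissions and all 9 other alternatives. In the omissions the stunted minus wild type difference ranged from -2.57 to -1.93 for AT1G62500, -2.27 to -1.83 for AT5G05960, -1.74 to -1.55 for AT5G55450 and -2.31 to -1.98 for AT2G14900. The stunted minus variegated difference ranged from -1.75 to -1.11, -1.12 to -0.68, -1.76 to -1.24 and -1.61 to -1.28 for the same genes, and that of AT1G62500 was -0.97 with the actin covariate. The variegated minus wild type difference of AT5G55450 turned to 0.11 without variegated replicate 2 (adjusted p = 0.898). In that comparison AT1G62500 passed at -0.82 with the 2 groups alone (adjusted p = 0.0396), AT5G05960 passed at -1.15 with the 2 groups alone (0.0496) and at -1.16 with array weights (0.0349), and AT2G14900 passed at -0.70 with the replicate number as a block (0.0465). In the omissions AT1G62500 ranged from -0.93 to -0.70, AT5G05960 from -1.28 to -0.98, AT2G14900 from -0.82 to -0.59 and AT5G55450 from -0.40 to 0.11. Same-numbered arrays of 2 groups had deviations that correlated at 0.0045 to 0.28, with 0.23 to 0.28 for replicate 3. In 13 of 18 checks an array correlated best with its own number among the 3 arrays of the other group, a hint from the data that numbers share something. Since the labels name no shared batch and not every pair correlated above 0.1, the numbers were not taken to pair the plants.

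Counts of probe sets past the threshold moved more. For stunted against wild type the count of 2197 was 1321 with the 2 groups alone and 1412 with the actin covariate. It was 2889 with the replicate block and 2934 with array weights. For variegated against wild type the count of 101 was 191 with the replicate block, 206 with the 2 groups alone, 349 with array weights and 186 with the actin covariate. For stunted against variegated the count of 396 was 940, 133, 1028 and 79 under the same 4. In single-array omissions they ranged from 1241 to 2955, 10 to 206 and 48 to 1404. The actin covariate and the fit of 2 groups alone ended the calls of AT3G18280 and AT2G37870 between stunted and wild-type plants (adjusted p up to 0.123), the fit of 2 groups alone ended that of AT4G33550 (0.0518), and both ended that of AT1G62510 between stunted and variegated plants (up to 0.284). The cause was not tested.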
